A study of Mus musculus with 20 samples.

Results

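Atf3, Atf4, Atf5, Ddit3, Chac1, Trib3, Sesn2, Asns, Ppp1r15a and Ddit4 are genes of the integrated stress response, and their mRNA was followed through every RNA-seq library of the series. The list of 10 was taken by gene symbol and was selected on earlier results of these data, among them the measured rise of Atf3 and Chac1 with hydroxyurea. Differences between hydroxyurea and vehicle are therefore given as a description with no test. All 10 genes were found in both count tables, out of 13107 genes in the first and 11210 in the second.

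In the integrated stress response, kinases that sense unfolded protein, amino acid shortage, viral RNA or heme shortage phosphorylate the translation factor eIF2. General translation then falls, while the mRNAs of Atf4, Atf5 and a few others are translated better. Atf4 is a transcription factor that, often paired with C/EBP proteins, raises transcription of genes for amino acid synthesis and uptake, tRNA charging, redox balance and, when stress lasts, cell death. Ppp1r15a closes the loop by bringing a phosphatase back to eIF2. In liver the pathway answers to secretory load and to diet, and liver tumours can rely on it.

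The cells were p19/Nras mouse liver cancer cells, which carry the loss of p19/Arf and the Nras expression of the tumour they came from, so that all groups, controls included, share both. WT cells had received a control guide RNA (sgCtrl) and KO cells a guide against Trim33 (sgTrim33), a chromatin-binding ubiquitin ligase also known as Tif1γ. In the Myc experiment, untreated WT, KO1 and KO2 cells carried either the pWZL vector (called Ctrl) or Myc, which gave 6 groups of 2 libraries. In the hydroxyurea experiment, WT and KO cells were kept in vehicle or in 1 mM hydroxyurea (HU), an inhibitor of ribonucleotide reductase that stalls replication forks, for 4 hours, which gave 4 groups of 2 libraries. Which KO line the second experiment used is not in the labels, nor whether a line was 1 clone, and the labels do not tie libraries of a group to separate cultures, although the study speaks of independent experiments, so p-values measure the spread between these libraries, which may be technical.

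Libraries held 14753177 to 17949430 counts in the Myc experiment, whereas those treated with HU or vehicle held 2315327 to 3082202. Of 20 hepatocyte markers, 1 was listed in each table, Asgr1 and Apob, at no more than 6.0 counts for each 1000000 in the library (CPM), and albumin was not listed. Krt8, Krt18, Krt19 and Afp, 4 of 7 liver tumour and epithelial markers, were listed and summed to between 1910 and 4339 CPM. Of 9 fibroblast and stellate cell markers, 7 were listed in the first table and 4 in the second, with Vim at 2602 CPM or more in every library and Dcn and Lum not listed. Of 8 leukocyte and endothelial markers only Cd68 was listed, at up to 6.30 CPM.

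Trim33 mRNA was lower in the KO libraries of the HU experiment, at 43.8 to 52.2 CPM against 125.2 to 142 CPM in WT. With the Ctrl vector it was 246 and 258 CPM in WT, 123 and 130.4 CPM in KO1 and 201 and 207 CPM in KO2. With Myc it was 131 and 155 CPM in the libraries labelled WT Myc, lower than in WT Ctrl (log2 fold change −0.82 ± 0.07, edgeR adjusted p = 6.98e-08). It was 185 and 193 CPM in those labelled KO1 Myc, above both WT Myc libraries, and 124.1 and 124.7 CPM in those labelled KO2 Myc, below both. The study shows loss of Trim33 in its KO lines by immunoblot, a measure of protein and not of mRNA. Myc mRNA itself was 433 and 439 CPM in WT Ctrl and 456 and 458 CPM in the libraries labelled WT Myc, a log2FC (log2 fold change) of 0.07 ± 0.05 that did not pass the test (edgeR, adjusted p = 0.310), while it was higher in those labelled KO1 Myc (1.73 ± 0.06) and KO2 Myc (1.16 ± 0.06) than in the Ctrl libraries of their line. The study reports exogenous Myc protein by immunoblot in cells given Myc. Whether the Myc counts here include the mRNA made from the vector was not tested. The 2 WT Myc libraries also stood further apart than those of any other group of the Myc experiment. Their mean squared difference was 11.1 times that of counting noise, against 2.21 to 4.52 times in the other groups of that experiment. The collagen gene Col1a2 lay at 141 to 142 CPM in KO1 Ctrl and 14.6 to 17.2 CPM in KO2 Ctrl, but at 3.78 to 3.89 CPM in the libraries labelled KO1 Myc and 86.9 to 91.2 CPM in those labelled KO2 Myc, so on both genes each KO Myc pair lay nearer the Ctrl pair of the other line. For this reason comparisons of KO Myc with KO Ctrl libraries are given as labelled, and in part against the Ctrl libraries of the other KO line. That alternative was added after seeing the data. It is given only for the counts of called integrated stress response genes and for the Ddit4 interaction. All other log2FC of KO Myc against KO Ctrl, and all counts for other gene lists, are as labelled only.

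Promoter windows were searched for the letters that Atf4 and its partners bind, as a description with no test. The windows, from RefSeq on GRCm38.p6, run from 250 bases before to 50 bases after each annotated gene start. The C/EBP-ATF response element (CARE) was searched as TGATGNAA, and the cAMP response element (CRE) as TGACGTCA, on both strands. CARE letters occurred in 4 of the 10 genes, against 4.51% of the 27025 genes in the table, and CRE letters in 1 of the 10, against 2.03%. The 10 were listed as genes of this response, known targets of Atf4 among them, so nothing is read from these shares. The stretches below hold those matches, printed 5′ to 3′ on the strand of the gene with the match in capitals. The 4 longer ones are the 250 bases before the start, and the one of Trib3 is 30 bases around a match that begins 15 bases into the gene.
Atf3, chr1:191183334-191183583, minus strand: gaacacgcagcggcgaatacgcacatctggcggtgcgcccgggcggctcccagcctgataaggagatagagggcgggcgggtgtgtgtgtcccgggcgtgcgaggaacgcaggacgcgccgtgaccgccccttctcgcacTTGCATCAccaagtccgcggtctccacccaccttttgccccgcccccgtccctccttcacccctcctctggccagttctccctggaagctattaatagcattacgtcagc
Chac1, chr2:119350992-119351241, plus strand: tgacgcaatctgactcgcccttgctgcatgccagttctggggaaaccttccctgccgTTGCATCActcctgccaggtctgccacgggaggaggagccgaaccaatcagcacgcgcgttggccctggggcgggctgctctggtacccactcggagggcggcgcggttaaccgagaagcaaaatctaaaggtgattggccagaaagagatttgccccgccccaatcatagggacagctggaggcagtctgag
Trib3, chr2:152344028-152344057, minus strand: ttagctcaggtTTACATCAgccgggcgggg
Asns, chr6:7693210-7693459, minus strand: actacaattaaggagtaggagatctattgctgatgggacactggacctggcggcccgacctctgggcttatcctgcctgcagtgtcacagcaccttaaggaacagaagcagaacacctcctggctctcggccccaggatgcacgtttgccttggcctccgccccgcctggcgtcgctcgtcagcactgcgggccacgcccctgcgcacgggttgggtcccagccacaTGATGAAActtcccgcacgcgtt
Ppp1r15a, chr7:45526269-45526518, minus strand: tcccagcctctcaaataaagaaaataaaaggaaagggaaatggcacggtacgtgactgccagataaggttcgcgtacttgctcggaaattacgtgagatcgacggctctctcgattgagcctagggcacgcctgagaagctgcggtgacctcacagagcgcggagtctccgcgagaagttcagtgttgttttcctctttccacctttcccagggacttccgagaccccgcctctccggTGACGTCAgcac

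In Atf3 and Chac1 the capitals read TTGCATCA, which is TGATGCAA on the other strand, and began 110 and 193 bases before the start. In Trib3 they read TTACATCA, or TGATGTAA on the other strand. In Asns the match TGATGAAA began 23 bases before the start, and in Ppp1r15a the palindrome TGACGTCA began 12 bases before it. No match lay in the windows of Atf4, Atf5 (which has 2 windows), Ddit3, Sesn2 and Ddit4, which says only that these letters are not there. A match is a run of letters and not a measured binding site.

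**Figure D1:**
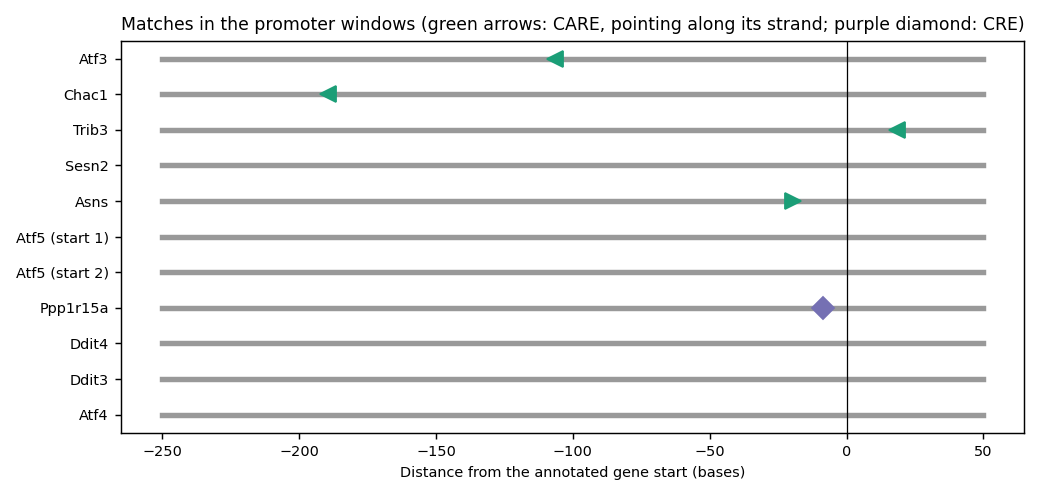
Promoter windows of the 10 genes (grey bars, distance in bases from the annotated start, Atf5 with 2 starts), with CARE matches as green arrows pointing along their strand and the CRE match as a purple diamond. Atf3, Chac1, Trib3 and Asns hold a CARE match and Ppp1r15a a CRE match.

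The KO lines were compared with WT first in the Ctrl cells, which did not carry the Myc vector. In KO1 Ctrl against WT Ctrl, 9 of the 10 genes were lower, with 26.7% of all 13107 genes lower at the same threshold (edgeR quasi-likelihood test, Benjamini-Hochberg adjusted p below 0.01). In KO2 Ctrl all 10 were lower, against a background of 26.6%. The median log2FC of the 10 was −2.61 in KO1 and −2.82 in KO2, against 0.00 and −0.01 over all genes. The 2 comparisons share the WT Ctrl libraries.

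The transcription factors of the list, in the order of their roles, come first. Atf4 mRNA, which codes for the central factor and lies at chr15:80085614-80087970 (mm9, as are the other gene positions), was 1230.3 and 1191 CPM in WT Ctrl, 373 and 353 CPM in KO1 Ctrl and 339 and 336 CPM in KO2 Ctrl. All KO libraries lay below both WT libraries, at a log2FC of −1.74 ± 0.08 (SE, adjusted p = 3.63e-11) in KO1 and −1.84 ± 0.08 (adjusted p = 3.09e-11) in KO2. Atf3 (chr1:192994175-193007219), a stress-induced factor of the same family that is itself a target of Atf4, was 130.4 and 127 CPM in WT Ctrl, 24.4 and 19.3 CPM in KO1 Ctrl and 22.0 and 19.5 CPM in KO2 Ctrl. Its log2FC was −2.56 ± 0.20 (adjusted p = 1.51e-08) in KO1 and −2.63 ± 0.20 (adjusted p = 1.44e-08) in KO2. Atf5, whose mRNA is also translated better when eIF2 is phosphorylated, stood at 388 and 417 CPM in WT Ctrl against 61.7 to 74.8 CPM in the 4 KO Ctrl libraries. Ddit3, known as Chop and tied to cell death under lasting stress, had 71.3 and 71.2 CPM in WT Ctrl, 13.1 and 11.96 CPM in KO1 Ctrl and 7.18 and 7.22 CPM in KO2 Ctrl, so the 3 groups did not overlap. Both fell in each KO line, Atf5 by 2.44 and 2.70 on the log2 scale (adjusted p = 2.51e-10 and 1.37e-10) and Ddit3 by 2.51 and 3.31 (adjusted p = 1.82e-08 and 2.60e-09).

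The largest falls were among the effector genes. Trib3, a pseudokinase that is a target of Atf4 and damps it, had the largest change of the 10 in both lines. It was 265 and 267 CPM in WT Ctrl, 14.5 and 13.3 CPM in KO1 Ctrl and 13.1 and 11.9 CPM in KO2 Ctrl, a log2FC of −4.26 ± 0.20 (adjusted p = 2.18e-11) and −4.41 ± 0.20 (adjusted p = 2.71e-11). Ppp1r15a, the phosphatase subunit Gadd34, was 565 and 625 CPM in WT Ctrl and between 31.8 and 34.5 CPM in all 4 KO Ctrl libraries. Its log2FC was −4.14 ± 0.21 (adjusted p = 6.49e-11) in KO1 and −4.22 ± 0.21 (adjusted p = 8.10e-11) in KO2.

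Chac1 (chr2:119176965-119180117), an enzyme that degrades glutathione, was 84.8 and 77.4 CPM in WT Ctrl, 10.6 and 8.02 CPM in KO1 Ctrl and 10.1 and 8.85 CPM in KO2 Ctrl. It fell by 3.12 on the log2 scale (SE 0.13, adjusted p = 9.98e-12) in KO1 and by 3.10 (SE 0.13, adjusted p = 1.65e-11) in KO2. Asns, asparagine synthetase, went from 652 and 655 CPM in WT Ctrl to between 83.2 and 87.0 CPM in the KO Ctrl libraries. Sesn2, a leucine sensor that restrains mTORC1 and is also a p53 target, was 85.3 and 92.8 CPM in WT Ctrl, 13.5 and 14.5 CPM in KO1 Ctrl and 20.8 and 21.3 CPM in KO2 Ctrl. These 2 also passed the test in each line, Asns at a log2FC of −2.96 and −2.94 and Sesn2 at −2.67 and −2.08.

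Ddit4 (Redd1), another brake on mTORC1 that also answers to hypoxia and glucocorticoids, moved least. It was 196 and 185 CPM in WT Ctrl, 159 and 152 CPM in KO1 Ctrl and 123 and 115 CPM in KO2 Ctrl. The groups did not overlap, but its log2FC of −0.30 ± 0.10 in KO1 missed the threshold (adjusted p = 0.0126), while −0.68 ± 0.10 in KO2 passed it (adjusted p = 1.39e-05). The KO1 difference passed with DESeq2 (adjusted p = 0.00660) and with only KO1 Ctrl and WT Ctrl in the edgeR fit (adjusted p = 1.37e-05).

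**Figure D2:**
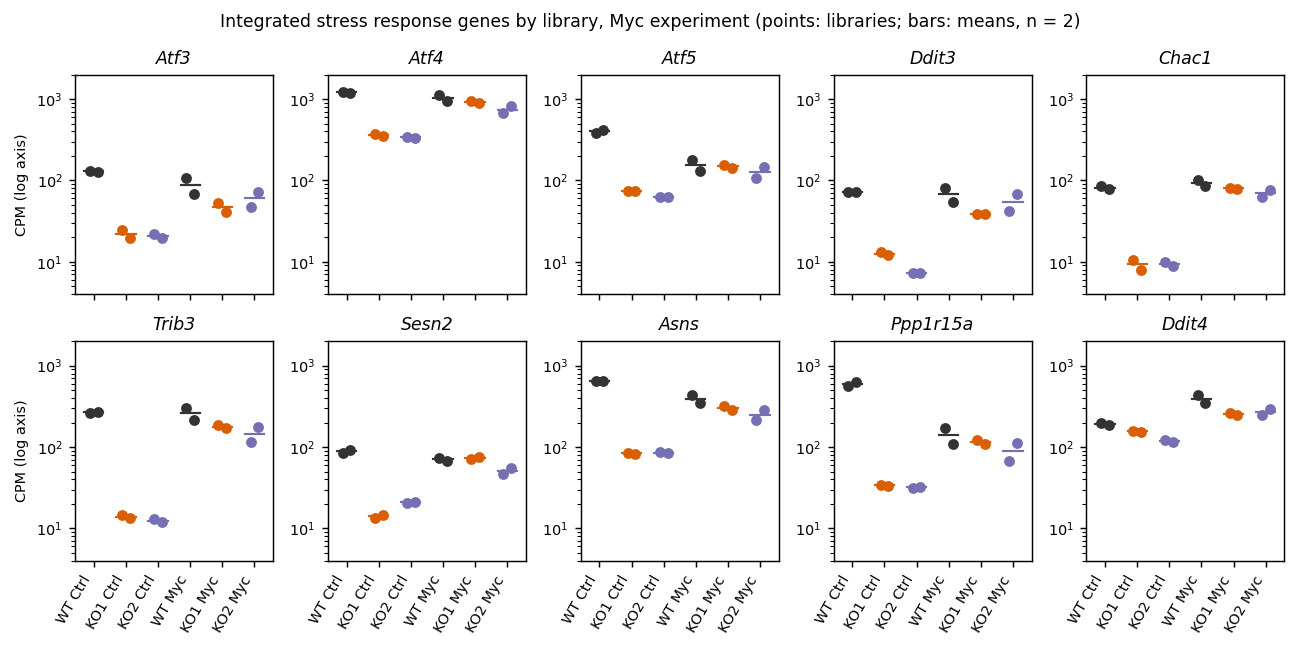
CPM (log axis) of each of the 10 genes in the 12 libraries of the Myc experiment, with a point for each library and a bar for each group mean (n = 2, groups as labelled). In all 10 panels the KO1 Ctrl and KO2 Ctrl points lie below those of all other groups, with the narrowest gap for Ddit4, where WT Ctrl lies next.

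KO2 Ctrl and KO1 Ctrl differed in 2 of the 10 genes, with 18.3% of all genes called in either direction. Sesn2 was higher in KO2 (log2FC 0.58 ± 0.11, adjusted p = 7.21e-04) and Ddit4 lower (log2FC −0.38 ± 0.10, adjusted p = 0.00675). None of the other 8 passed, the farthest from 0 being Ddit3 (log2FC −0.80 ± 0.27, adjusted p = 0.0380). This count was 0 without replicate 1 of KO1 Ctrl and 1 without any of the other 3 libraries.

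The same comparisons were read for the rest of the pathway, in lists drawn up with earlier results of these data known. Of 39 other targets of Atf4, 39 were lower in KO1 Ctrl and 38 in KO2 Ctrl, none was higher, and the list's median log2FC was −1.64 and −1.63. Cth, which makes cysteine, went from a mean of 202 CPM in WT Ctrl to 4.4 CPM in both KO lines (log2FC −5.52 ± 0.22 in each). Aldh1l2, a mitochondrial folate enzyme, went from 327 CPM to 12.4 CPM in KO1 and 15.2 CPM in KO2. Gdf15, a secreted stress cytokine, went from 853 CPM to 32.9 and 68.4 CPM. Fgf21, a hormone of the fasting liver, had log2FC of −4.20 ± 0.57 and −5.07 ± 0.65, from a mean of only 1.35 CPM in WT Ctrl.

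The genes that act before Atf4 had no common direction. Of 19 upstream genes, the eIF2 kinases, eIF2 and eIF2B subunits and their regulators, 5 were higher and 3 lower in KO1 Ctrl, and 5 were higher and 5 lower in KO2 Ctrl, with medians of 0.15 and 0.03. Over all 13107 genes, 3337 were higher and 3505 lower in KO1 Ctrl, and 3055 were higher and 3490 lower in KO2 Ctrl. Calls in the upstream list were thus no more frequent than over all genes by a clear margin, and nothing is read from their number. Eif2s2, the beta subunit of eIF2, had the largest change (log2FC −1.17 ± 0.08 in KO1 and −1.05 ± 0.08 in KO2), and the kinase gene Eif2ak2 was higher (0.72 ± 0.10 and 0.57 ± 0.10). Of 13 ER chaperone genes, which answer to Atf6 and Xbp1, 6 were higher and 5 lower in KO1 Ctrl, and 1 was higher and 9 lower in KO2 Ctrl. Hspa5, the chaperone BiP, fell by 1.01 and 1.40 on the log2 scale, Dnajb9 by 1.08 and 1.33 and Xbp1 itself by 0.76 and 1.07, while Sdf2l1 rose (2.34 ± 0.12 and 1.36 ± 0.13).

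Other measures moved with these differences. Myc mRNA was 433 and 439 CPM in WT Ctrl, 186 and 196 CPM in KO1 Ctrl and 210.3 and 219 CPM in KO2 Ctrl. The fibroblast genes Col3a1 and Pdgfrb were 318 to 370.2 CPM and 168 to 191 CPM in KO1 Ctrl, 38.6 to 44.6 CPM and 98.1 to 106 CPM in KO2 Ctrl, and at most 6.22 and 16.9 CPM in WT Ctrl. Of the 7 fibroblast markers listed, 5 were higher and 0 lower in KO1 Ctrl, and 2 were higher and 2 lower in KO2 Ctrl. Of the 4 liver tumour and epithelial markers listed, 3 were lower and 0 higher in each KO line, at a median log2FC of −1.75 and −1.11. Krt19 was 396 to 415 CPM in WT Ctrl, 46.8 to 48.6 CPM in KO1 Ctrl and 112 to 119 CPM in KO2 Ctrl, and Afp was 30.2 to 33.0, 0.798 to 0.920 and 8.13 to 8.56 CPM. The part of these measures in the result was not tested, and fewer cells of a type and less RNA per cell cannot be told apart in such samples.

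**Figure D3:**
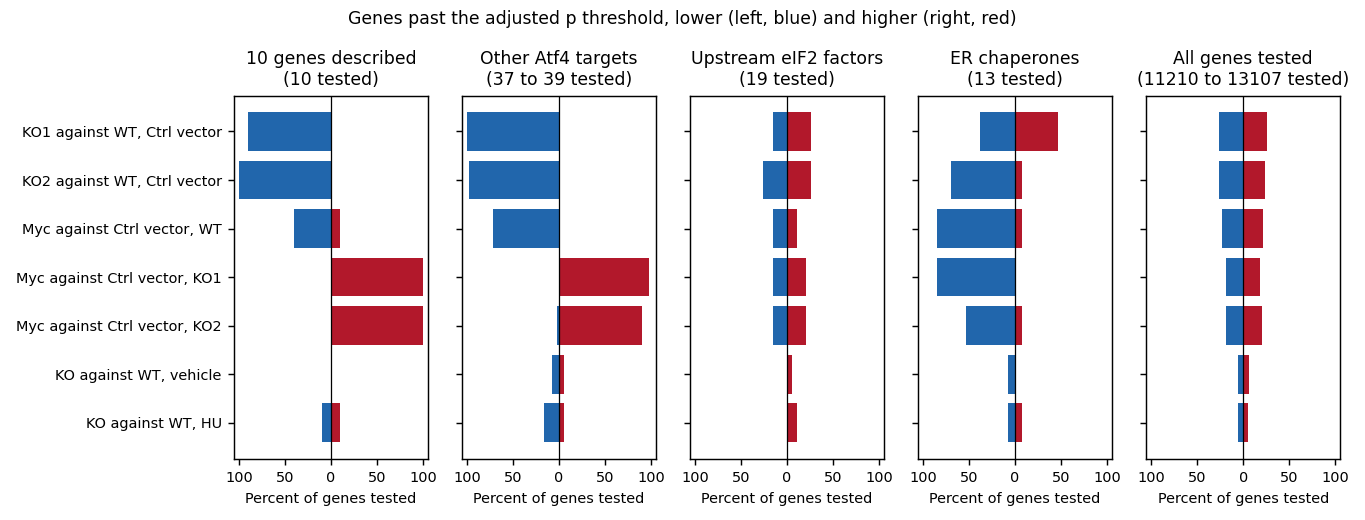
Percent of the genes tested in each list that passed the adjusted p threshold (0.01, or 0.05 for the 2 HU experiment comparisons), lower to the left in blue and higher to the right in red, for 7 comparisons. Called members and other Atf4 targets are all lower in the Ctrl vector comparisons and higher in Myc against Ctrl in KO1 and KO2, save 1 Atf4 target that is lower in KO2, while upstream genes lie on both sides in the Myc experiment and none is lower in the 2 HU experiment comparisons.

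The libraries labelled Myc were compared with the Ctrl libraries in each line. In WT cells, where Myc mRNA showed no rise past the test, 5 of the 10 genes differed between WT Ctrl and the libraries labelled WT Myc, against 44.3% of all genes called in either direction. Ppp1r15a went from 565 and 625 CPM to 174 and 109 CPM (log2FC −2.07 ± 0.18, adjusted p = 1.18e-07). Atf5 fell by 1.39 on the log2 scale (adjusted p = 2.59e-07), Asns by 0.73 (adjusted p = 2.37e-05) and Sesn2 by 0.34 (adjusted p = 0.00189, or 0.0363 without replicate 2 of WT Ctrl). Ddit4 was the 1 gene that rose, to 437 and 349 CPM (log2FC 1.04 ± 0.09, adjusted p = 1.54e-07).

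Trib3, at 306 and 218 CPM in the libraries labelled WT Myc, lay on both sides of its WT Ctrl values, as did Ddit3 at 80.6 and 54.4 CPM. Replicate 1 of WT Myc was above replicate 2 in all 10 genes. Of the 39 other Atf4 targets, 28 were lower in the libraries labelled WT Myc and none was higher.

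In the KO lines all 10 genes were higher in the libraries labelled Myc. In KO1 this compared with 17.9% of all genes higher, and in KO2 with 20.2%. Atf4 was 933 and 894 CPM in the libraries labelled KO1 Myc and 674 and 813 CPM in those labelled KO2 Myc, above every KO Ctrl library and below both WT Ctrl libraries. Trib3 again had the largest change, with 186 and 171 CPM labelled KO1 Myc (log2FC 3.68 ± 0.20, adjusted p = 4.11e-10) and 115.4 and 178 CPM labelled KO2 Myc (log2FC 3.55 ± 0.20, adjusted p = 6.57e-10). Chac1 was at 81.0 and 79.4 CPM labelled KO1 Myc and 62.5 and 76.8 CPM labelled KO2 Myc, which lay next to its WT Ctrl values of 84.8 and 77.4 CPM.

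Atf3 was further from its WT Ctrl level. It was 52.2 and 41.0 CPM in the libraries labelled KO1 Myc (log2FC 1.09 ± 0.21, adjusted p = 4.83e-04) and 47.7 and 72.5 CPM in those labelled KO2 Myc (log2FC 1.54 ± 0.21, adjusted p = 1.56e-05), below both WT Ctrl libraries. Without replicate 2 of KO1 Ctrl its difference in KO1 missed the threshold (adjusted p = 0.0125). Ppp1r15a stood at 121 and 109 CPM labelled KO1 Myc and 67.7 and 112 CPM labelled KO2 Myc, also far below WT Ctrl. The remaining genes rose by 0.71 (Ddit4) to 2.38 (Sesn2) on the log2 scale in KO1 and by 1.04 (Atf5) to 2.93 (Ddit3) in KO2. Set against the Ctrl libraries of the other KO line, the count was again 10 in each.

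Of the other Atf4 targets, 38 were higher in the libraries labelled KO1 Myc and 35 higher and 1 lower in those labelled KO2 Myc, at medians of 1.09 and 0.78. Cth rose by 3.27 ± 0.24 and 2.67 ± 0.25 on the log2 scale, to 42.4 and 28.0 CPM. Pycr1, an enzyme of proline synthesis, rose by 2.17 ± 0.18 and 1.93 ± 0.18. The upstream list had 4 higher and 3 lower in each line. The ER chaperone list had 11 lower and 0 higher in KO1 and 7 lower and 1 higher in KO2. In WT the same list had 11 lower and 1 higher. Over all 13107 genes, 2386 were lower in KO1, 2437 in KO2 and 2970 in WT. Myc mRNA in the same libraries was 621 and 646 CPM labelled KO1 Myc, 459 and 499 CPM labelled KO2 Myc and 456 and 458 CPM labelled WT Myc, and the 7 fibroblast markers listed were all lower in KO1, while 5 were higher and 0 lower in KO2. The 4 liver tumour and epithelial markers had 2 higher and 0 lower in KO1, and all 4 were lower in KO2 and in WT. The Atf4 target, upstream, ER chaperone and marker counts are as labelled and were not taken against the other line's Ctrl libraries. Col3a1 was 35.2 to 40.6 CPM labelled KO1 Myc, near KO2 Ctrl (38.6 to 44.6 CPM). It was 341 to 354 CPM labelled KO2 Myc, near KO1 Ctrl (318 to 370.2 CPM). Krt19 was also nearer the other line's Ctrl pair. Vim labelled KO2 Myc, at 3071 to 3100 CPM, lay next to KO2 Ctrl (3064 to 3092 CPM).

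The difference between the Myc effect, Myc against Ctrl libraries as labelled, in a KO line and that in WT was tested as an interaction. It was positive and passed the threshold for 9 of the 10 genes in KO1, against 19.2% of all genes, and for 9 of 10 in KO2, against 16.6%. Ppp1r15a had the largest difference in KO1 (log2 difference 3.85 ± 0.27, adjusted p = 1.39e-08) and Trib3 in KO2 (3.58 ± 0.25, adjusted p = 1.50e-08). Atf4 differed by 1.55 ± 0.11 (adjusted p = 1.97e-08) and 1.36 ± 0.11 (adjusted p = 1.11e-07). Ddit4 was the exception, at −0.34 ± 0.13 (adjusted p = 0.0445) in KO1 and 0.14 ± 0.13 (adjusted p = 0.403) in KO2, and against the Ctrl libraries of the other KO line its sign turned in both. Without replicate 2 of WT Myc the Ddit4 difference in KO1 passed, at −0.49 (adjusted p = 1.66e-04). The 2 interactions share the WT libraries, and with the other line's Ctrl libraries the count was 9 in each.

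Between the libraries labelled Myc, the gap between KO and WT was smaller for all of the 10 genes but Ddit4, by the interaction test above. In KO1 Myc against WT Myc 5 of the 10 genes were called, all lower, with 25.1% of all genes called in either direction. They were Atf3 (log2FC −0.90 ± 0.19, adjusted p = 0.00120), Ddit3 (−0.82 ± 0.17, adjusted p = 0.00138), Ddit4 (−0.63 ± 0.09, adjusted p = 5.57e-05), Trib3 (−0.55 ± 0.15, adjusted p = 0.00876) and Asns (−0.40 ± 0.11, adjusted p = 0.00711). The Trib3 call was lost with the replicate block (adjusted p = 0.0113), DESeq2 (adjusted p = 0.0680), only these groups in the fit (adjusted p = 0.0204) and only genes with a mean of at least 5 CPM (adjusted p = 0.0142), and that of Asns in the last 2 of these (adjusted p = 0.0295 and 0.0115). The highest of the others was Sesn2 (0.04 ± 0.08, adjusted p = 0.696). This count moved to 3 without replicate 1 of WT Myc, to 8 without replicate 2 of WT Myc, to 2 without replicate 1 of KO1 Myc and to 1 without replicate 2 of KO1 Myc.

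In KO2 Myc against WT Myc 7 genes were called, all lower, with 35.2% of all genes called. Trib3 had the largest difference (log2FC −0.83 ± 0.15, adjusted p = 2.85e-04), followed by Asns (−0.65 ± 0.11) and Ppp1r15a (−0.65 ± 0.19), whose libraries overlapped between the groups. Atf4 was lower by 0.48 ± 0.08 (adjusted p = 1.31e-04), and Chac1 (−0.40 ± 0.10), Sesn2 (−0.46 ± 0.08) and Ddit4 (−0.54 ± 0.09) also passed. Chac1 and Ppp1r15a missed the threshold without replicate 1 of WT Myc (adjusted p = 0.0207 and 0.131) and without replicate 1 of KO2 Myc (adjusted p = 0.0774 and 0.146), while all 10 genes passed without replicate 2 of either group. The Ppp1r15a call was also lost with the replicate block (adjusted p = 0.0120), DESeq2 (adjusted p = 0.0512), only these groups in the fit (adjusted p = 0.0479) and only genes with a mean of at least 5 CPM (adjusted p = 0.0146), and that of Chac1 with only these groups in the fit (adjusted p = 0.0209). Of the other Atf4 targets, 3 were higher and 8 lower in KO1 Myc, and 1 was higher and 20 lower in KO2 Myc. Gdf15 was among the lower ones in both (log2FC −1.41 ± 0.12 and −2.20 ± 0.12).

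**Figure D4:**
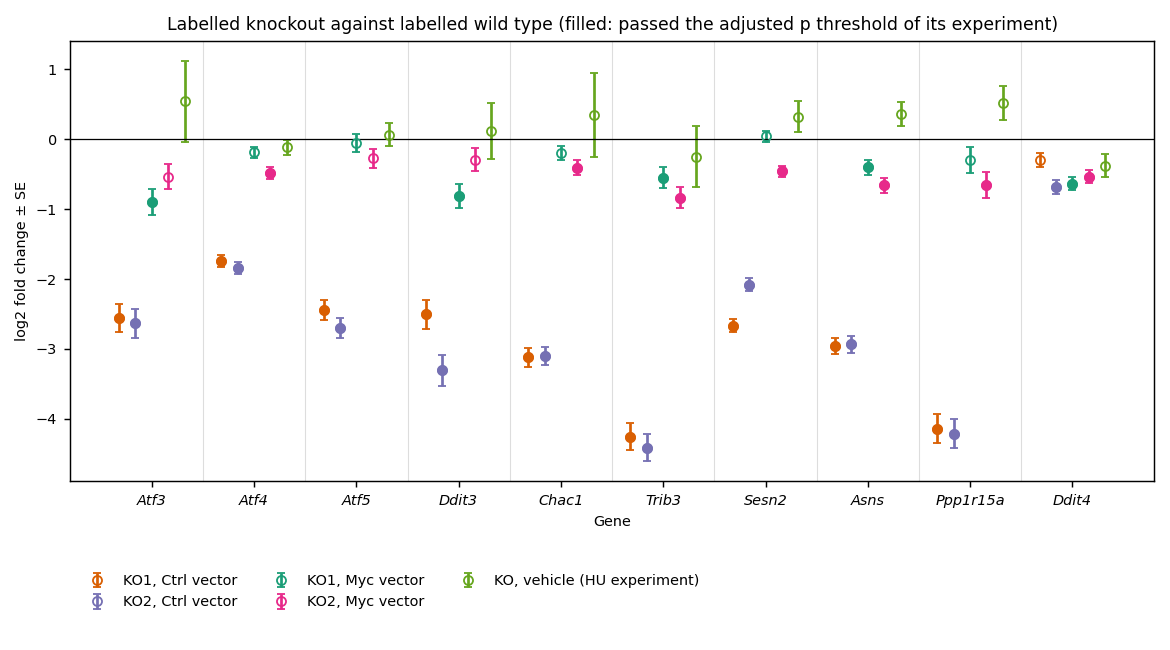
Log2 fold change ± SE of each of the 10 genes for KO against WT libraries as labelled, in 5 comparisons, with filled points where the adjusted p threshold of the experiment was passed. The Ctrl vector points lie between −1.74 and −4.41 for all genes but Ddit4, while no vehicle point of the HU experiment is filled.

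The HU experiment gave the same genes in a second set of WT and KO cells. In vehicle, none of the 10 genes was called between KO and WT, with 12% of all genes called in either direction at an adjusted p below 0.05. By edgeR, 3 of the 10 had an unadjusted p under 0.05, and DESeq2 also called 0. Atf4 was 318 and 324 CPM in WT vehicle and 274 and 321 CPM in KO vehicle, which overlapped. Asns was 49.7 and 43.6 CPM in WT and 52.4 and 66.8 CPM in KO, and Trib3 was 5.14 and 4.51 CPM in WT and 4.88 and 3.34 CPM in KO. The log2FC of the 10 ran from −0.38 ± 0.17 for Ddit4 (adjusted p = 0.154) to 0.54 ± 0.58 for Atf3 (adjusted p = 0.628). Of 37 other Atf4 targets tested, 2 were higher (Slc7a11, 0.52 ± 0.14, and Sars, 0.46 ± 0.12) and 3 lower, led by Aldh1l2 (−2.18 ± 0.53) and Vldlr (−0.78 ± 0.21).

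The WT levels of the 2 experiments were far apart. Mean CPM in WT Ctrl was 3.20 times (Ddit4) to 66.7 times (Atf3) that in WT vehicle, with 39.8 times for Chac1 and 3.77 times for Atf4. Summed over the 10 genes, the WT Ctrl libraries had 3667 and 3709 CPM, the WT vehicle libraries 536 and 549.6 CPM, and the KO Ctrl libraries 801 and 761 CPM in KO1 and 716 and 697 CPM in KO2. The libraries labelled WT Myc had 3014 and 2389 CPM, those labelled KO1 Myc 2212 and 2079 CPM and those labelled KO2 Myc 1626 and 2102 CPM, so the last 2 groups overlapped and no other neighbours in this order did. Atf4 makes up a large share of each sum. The tables were normalized separately and were made in separate experiments, so no test was run across them, and what sets the WT groups apart cannot be told apart from the experiment.

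Under HU all 10 genes were higher than in vehicle in both genotypes. For none of them did an HU library overlap a vehicle library of its genotype. The share of all genes without overlap was not computed, so nothing is read from that. A log2FC of 1 or more was reached by 8 of the 10 in WT, against 4.31% of all genes, and by 8 of the 10 in KO, against 4.15%. Since the list was chosen on this rise, nothing is read from these counts. The genes nearest that limit were Atf4 in WT (log2FC 1.00 ± 0.10) and Atf5 in KO (1.02 ± 0.15), just inside it, and Asns in WT (0.87 ± 0.17) and Atf4 in KO (0.84 ± 0.11), just outside it.

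Atf3 rose from 0.857 and 3.01 CPM in WT vehicle to 148 and 166 CPM in WT HU, and from 2.44 and 3.34 CPM in KO vehicle to 218 and 169 CPM in KO HU. Its vehicle values rest on 2 and 8 counts in WT and 6 and 10 counts in KO, so that its log2FC of 6.26 ± 0.28 in WT became 7.43 without replicate 2 of WT vehicle, and it was 6.03 ± 0.25 in KO. Chac1 rose from 2.57 and 1.5 CPM to 59.2 and 69.3 CPM in WT, and from 2.44 and 2.67 CPM to 65.4 and 46.6 CPM in KO (log2FC 4.97 ± 0.35 and 4.43 ± 0.33). Its vehicle values rest on 4 to 8 counts in each library. All of these vehicle counts of Atf3 and Chac1 are even, as were 71.9% of counts between 1 and 50 in the HU experiment. The reason was not tested.

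Trib3 reached 73.2 and 88.3 CPM in WT HU and 84.1 and 84.6 CPM in KO HU (log2FC 4.06 ± 0.27 and 4.37 ± 0.28). Ddit3 went from 4.28 and 6.39 CPM to 71.0 and 80.4 CPM in WT and from 6.10 and 5.68 CPM to 79.5 and 71.1 CPM in KO. Ppp1r15a, at 14.6 and 19.5 CPM in WT vehicle, was 157 and 136 CPM in WT HU, and Sesn2 went from 20.6 and 22.2 CPM to 123 and 121 CPM. Atf4 mRNA rose less, to 643 and 645 CPM in WT HU and to 562 and 508 CPM in KO HU. Per kilobase of exon, mean levels in WT HU ran from 31.0 RPKM for Asns to 373.5 RPKM for Atf4, with Atf3 at 79.1 RPKM and Chac1 at 39.2 RPKM.

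**Figure D5:**
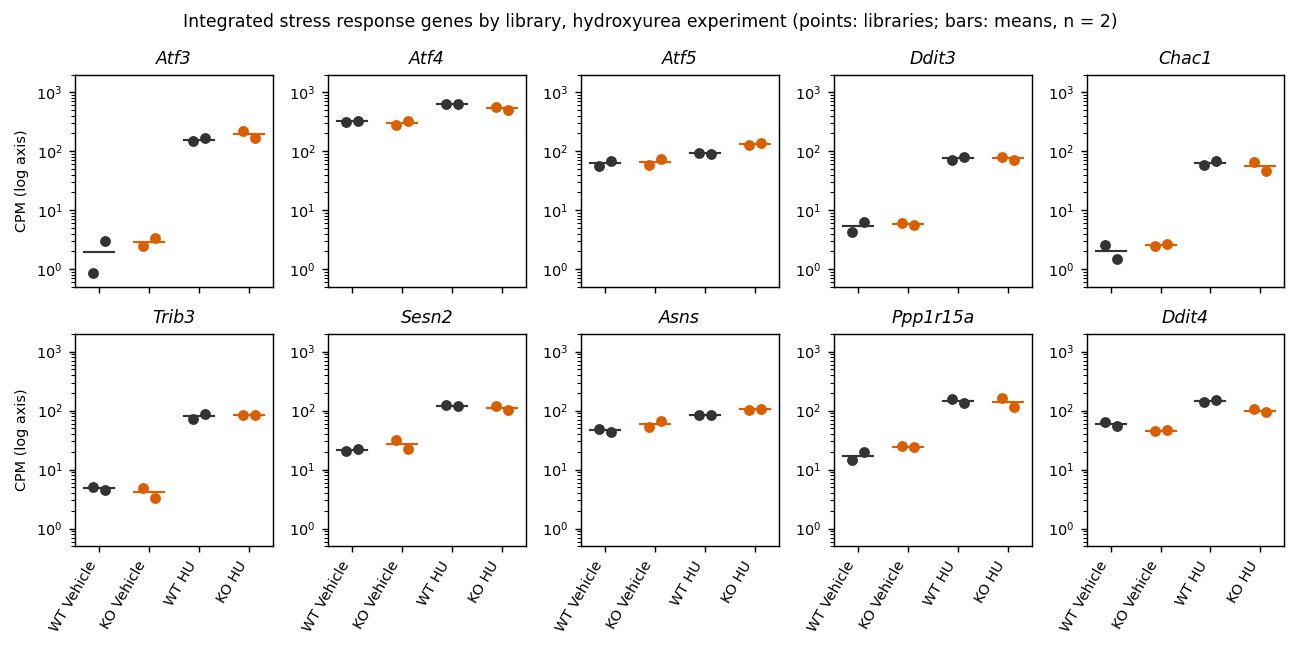
CPM (log axis) of each of the 10 genes in the 8 libraries of the HU experiment, with a point for each library and a bar for each group mean (n = 2). Every HU point lies above the vehicle points of its genotype, with the widest gap for Atf3 and the narrowest for Atf5 in WT.

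Asns, the most abundant effector in WT Ctrl at 239 RPKM, had the lowest fitted change of the effectors under HU (log2FC 0.87 in WT and 0.82 in KO), from 49.7 and 43.6 CPM to 85.3 and 84.5 CPM in WT and from 52.4 and 66.8 CPM to 103 and 109 CPM in KO. Mean Asns was thus 653 CPM in WT Ctrl and 84.9 CPM in WT HU, while mean Atf3 was 129 CPM in WT Ctrl and 157 CPM in WT HU, values that come from separately normalized tables. The other Atf4 targets were also uneven, with 9 of 37 at a log2FC of 1 or more in WT and 8 of 37 in KO. Gdf15 went from a mean of 23.8 CPM to 219 CPM in WT and from 26.3 CPM to 362 CPM in KO, and Jdp2, a factor of the Atf3 family, from 7.72 to 40.4 CPM and from 5.78 to 24.4 CPM. Of the 19 upstream genes, 1 was past a log2FC of 1 in each genotype, Eif2b4, an eIF2B subunit, on the lower side in WT (−1.30 ± 0.30) and the ER kinase gene Eif2ak3 on the higher side in KO (1.60 ± 0.32, with 0.72 ± 0.33 in WT), and the list's median was −0.14 in WT and −0.04 in KO. Of the 13 ER chaperone genes, 0 in WT and 1 in KO were at 1 or more, Dnajb9 (1.38 ± 0.32), with medians of −0.10 and −0.14, while Hspa5 had 0.63 ± 0.10 and 0.78 ± 0.10.

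Between KO HU and WT HU, 2 of the 10 genes were called, with 11.0% of all genes called in either direction. Atf5 was higher in KO, at 130 and 138 CPM against 94.8 and 90.7 CPM (log2FC 0.53 ± 0.15, adjusted p = 0.0107). Ddit4 was lower in KO, at 106 and 95.2 CPM against 142 and 150.3 CPM (log2FC −0.54 ± 0.14, adjusted p = 0.00751). The count was 0 without either WT HU library and 0 without replicate 2 of KO HU. Atf4 did not overlap either, at 562 and 508 CPM against 643 and 645 CPM.

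None of the 10 genes passed the test of a different HU effect in KO and WT, with 0.0714% of all genes called. By edgeR, 2 of the 10 had an unadjusted p under 0.05, and DESeq2 called 0. The log2 differences ran from −0.57 ± 0.28 for Ppp1r15a (adjusted p = 0.926) to 0.46 ± 0.22 for Atf5 (adjusted p = 0.893). The SE reached 0.64 for Chac1 and 0.59 for Atf3, which have few counts in vehicle. For these genes even a difference that is not small could go undetected at this depth. Of the 37 other Atf4 targets, 2 were higher and 6 lower in KO HU than in WT HU, among them Gdf15 (0.72 ± 0.12, higher) and Herpud1 (−0.85 ± 0.19, lower), and 0 passed the interaction test by edgeR.

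The genes whose log2 CPM followed the main members most closely were listed among genes with a mean of at least 5 CPM, as a description, since libraries of a group share their condition. Over the 12 libraries of the Myc experiment, Chac1 was most like Jdp2 (Pearson r 0.993), Trib3 (0.992) and Psat1 (0.987), the last an enzyme of serine synthesis. Atf4 was most like Arid5a (0.995), Herpud1 (0.995) and Eif4ebp1 (0.994), and Atf3 most like Lrrc8d (0.986), Eif3m (0.985) and Tsnax (0.984). Over the 8 libraries of the HU experiment, Atf3 was most like Ddit3 (0.997), Tsc22d1 (0.994) and Cdc42bpg (0.992), Chac1 most like Plk2 (0.997), Bbc3 (0.996) and Slc7a1 (0.996), the first pair known as p53 targets and the last an amino acid transporter gene, and Atf4 most like Snhg15 (0.993), Csrnp2 (0.992) and Jund (0.991). Ddit4 was the gene of the list least like Atf3, at 0.663 over 12 libraries and 0.889 over 8.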

How the data were processed

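RNA of p19/Nras cells was sequenced in 20 libraries, 12 of a Myc experiment and 8 of a hydroxyurea experiment. The authors aligned reads to mm9 with STAR 2.5.4 and, per the submitters' processing notes, used edgeR 3.26.8 (for the hydroxyurea libraries also bcl2fastq 2.20 and FastQC 0.11.5). The counting tool and annotation are not given in the sources used here. The authors deposited whole-number counts per gene, 1 table for each experiment. The first table is described as normalized, yet its values are whole and their totals differ between libraries. Of counts between 1 and 50, 48.4% were even in the first table and 71.9% in the second, so counts divided by 2 were tried as an alternative for the second. The authors' tables of fold changes and p-values were not used. Genes with no symbol (298 and 168) stayed in the fits.

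CPM, factors and tests were computed here with edgeR 4.0.16 in R 4.3.3 (TMM normalization, filterByExpr, which removed 0 genes, quasi-likelihood test, 1 coefficient for each group, all groups of an experiment in 1 fit). TMM factors ran from 0.958 to 1.02. P-values were adjusted by Benjamini-Hochberg over all 13107 or 11210 genes, with thresholds of 0.01 (Myc experiment) and 0.05 (hydroxyurea experiment) after the study's methods. The SE is the log2FC divided by the square root of the F statistic. Gene positions and exon lengths came from GENCODE vM1 (mm9), and RPKM is the CPM per kilobase of merged exons. Promoter windows came from RefSeq on GRCm38.p6. Replicates of every group differed by more than the counting noise of the counts as deposited. This was not computed with the counts of the second table divided by 2. The scripts were tested on simulated data.

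The 10 genes and all lists were chosen with earlier results of these data known. The text names all 10 genes, Trim33, up to 4 called genes of each list with the largest changes and no overlap between groups (for hydroxyurea without a call), and the 3 genes most alike in log2 CPM (prior count 2) to Atf3, Chac1 and Atf4. Myc, Col1a2, Col3a1, Pdgfrb and single markers were named after their values were seen. Alternatives were the replicate number as a block, only the groups compared in the fit, RLE factors, library totals, other filters, DESeq2 1.42.0 and each library left out.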

Additional observations from a re-analysis of the deposited data

Results flagged for a closer look

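The Myc effect differed between a KO line and WT by an interaction test for 9 of the 10 genes in each line. In KO1 minus WT the log2 differences were Atf3 1.66, Atf4 1.55, Atf5 2.39, Ddit3 1.69, Chac1 2.92, Trib3 3.71, Sesn2 2.71, Asns 2.56 and Ppp1r15a 3.85. In KO2 minus WT they were Atf3 2.10, Atf4 1.36, Atf5 2.43, Ddit3 3.01, Chac1 2.70, Trib3 3.58, Sesn2 1.63, Asns 2.28 and Ppp1r15a 3.56. Both sets share the WT libraries. Each is the log2FC of Myc against Ctrl in the KO line less that in WT, so a fall in WT adds to it. For Ppp1r15a these were 1.77 in KO1 and 1.49 in KO2 against −2.07 in WT, and for Atf5 1.00 and 1.04 against −1.39, while for Trib3 they were 3.68 and 3.55 against −0.03. Myc mRNA, which did not pass the test in WT Myc against WT Ctrl, and the fibroblast, liver tumour and epithelial markers moved in the same libraries, and their part was not tested. The libraries labelled KO1 Myc went against their label in Trim33 mRNA, which was higher there than in WT Myc. Trim33 mRNA was itself lower in WT Myc than in WT Ctrl (log2FC −0.82 ± 0.07). The WT Myc pair enters every one of these differences. Its mean squared difference was 11.1 times that of counting noise, against 2.21 to 4.52 times in the other groups of the Myc experiment. With 2 libraries a group, no single library was tested for standing apart from its group.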

How the results depend on the processing

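The counts of called genes in KO1 and KO2 Ctrl against WT Ctrl, in Myc against Ctrl in each line and in both Myc interactions stayed within 1.5 times under all alternatives run, the Ctrl libraries of the other KO line included. Within that, Myc against Ctrl in WT gave 5 as reported, 4 with library totals alone and 6 with only these groups in the fit. It also moved with a library left out. The calls that changed in KO2 against WT with Myc are given with that comparison. KO2 against KO1 Ctrl gave 2 genes as reported, 4 with only these groups in the fit, 1 with library totals alone and 0 to 1 with a library left out. KO1 against WT with Myc gave 5 as reported, 3 with only these groups in the fit, 3 among genes with a mean of at least 5 CPM and 1 to 8 with a library left out. KO against WT in HU gave 2 as reported, 4 with only these groups in the fit and 0 to 2 with a library left out. Where a library was left out, the lone one of its group was assumed to vary like the other groups. Of the single values, 4 that had not been called changed sign. Sesn2 in KO1 against WT with Myc ranged from −0.00183 to 0.10 with a library left out, Atf3 in KO against WT in vehicle from −0.040 to 1.71 and the Ddit4 interaction in KO2 from −0.011 to 0.31. Against the Ctrl libraries of the other KO line the Ddit4 interaction was 0.048 in KO1 and −0.24 in KO2. Of 42 other values that were not called, 19 changed sign and 11 were called in at least 1 alternative. The causes of these changes were not tested.

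Replicate numbers are shared between groups, but within-group differences correlated from −0.36 to 0.48 over 15 pairs of groups in the Myc experiment and from −0.02 to 0.09 over 6 in the HU experiment, so the numbers were not taken to pair the samples. With the replicate block, the count was 4 in place of 5 for KO1 against WT with Myc and 6 in place of 7 for KO2, and it changed no other count of called genes. The depth of the HU libraries limits Atf3 and Chac1 in vehicle, at 2 to 10 counts in each library.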
